A study of Mus musculus with 12 samples.

Results

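The 39 genes described here encode the machinery that pinches endocytic vesicles off the plasma membrane and sorts their cargo inside the cell: Rab GTPases and the tether EEA1, the EHD ATPases, clathrin with its AP-2 adaptor and accessory proteins, the retromer with its sorting nexins, and the ESCRT complexes with the ATPase VPS4. They were chosen by name, and all 39 were found among the 24421 gene symbols of the count table. Of these, 38 had enough reads to be tested. Ehd3, which encodes an EHD ATPase of recycling endosomes, was not tested because only 5 reads were assigned to it in mouse B with DMSO and Ova, and none elsewhere.

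The RNA came from BMDMs, macrophages grown out of the femur and tibia marrow of wild-type C57BL/6 mice, after culture for 5 days with the growth factor M-CSF at 100 ng/mL and new medium on day 3. Cells then spent 4 hours with soluble ovalbumin (Ova) or with ovalbumin bound by IgG into an immune complex (IC), in the presence of the solvent DMSO or of I-BET151 (iBET) at 5.0 µM, a drug that blocks the bromodomains of the BET family of chromatin readers. The labels place drug and stimulus together in time, the study's methods place the drug first, and the labels give the solvent as 5% DMSO. This gave 4 groups of 3 libraries (DMSO with Ova, DMSO with IC, iBET with Ova, iBET with IC), and mice A, B and C each contributed 1 library to every group, so that all libraries share strain, culture and growth factor. The ages of the mice were not stated. In RNA from many cells at once fewer cells expressing a gene and less RNA per cell cannot be told apart.

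Macrophages take up antibody-coated particles through Fcγ receptors, and clathrin and AP-2 also carry receptors and soluble proteins inwards. New vesicles fuse into early endosomes under RAB5 and EEA1. From there, retromer, sorting nexins and EHD proteins return receptors to the Golgi or to the cell surface. Cargo that is to be degraded is sorted by the ESCRT complexes into vesicles inside the endosome, which matures under RAB7 and fuses with lysosomes.

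Libraries held 7549849 to 17387639 counts. The DMSO, Ova library of mouse A stood apart, since 77.4% of its counts fell on Rn45s, the precursor of ribosomal RNA, which left 1768133 counts for all other genes. In mouse A with DMSO and IC, Rn45s took 7.83%, and in the remaining 10 libraries it took 1.41% to 4.4%. The 7 macrophage markers summed to 6442 to 7487 CPM (counts scaled for sequencing depth with TMM factors) in DMSO with Ova, 6109 to 7057 in DMSO with IC, 7051 to 8338 in iBET with Ova and 7662 to 8361 in iBET with IC, so that every iBET library with IC lay above every DMSO library. Lyz2 gave the largest part of the macrophage sum in every library. With IC it stood at 2613, 3258 and 3219 CPM in DMSO (mice A, B and C) and at 3823, 4361 and 3893 CPM in iBET. Csf1r with IC was lower in iBET in mouse B (1028 to 962 CPM) and mouse C (1079 to 912 CPM). Cd68 was too (885 to 868 and 851 to 737 CPM), and both were higher in mouse A. The 7 neutrophil markers in the table summed to between 9.76 and 56.3 CPM. The summed neutrophil level overlapped between all groups, at 9.76 to 54.0 CPM in DMSO with Ova, 12.1 to 49.1 in DMSO with IC, 14.6 to 56.3 in iBET with Ova and 17.3 to 44.8 in iBET with IC. None of the 24 markers of T, B, dendritic, erythroid, stromal and mast cells exceeded 1.33 CPM in a library, and 8 of them had no count in any library.

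Per kilobase of exon, the member genes spanned a wide range of levels in these macrophages. The length was that of all annotated exons of a gene merged, so these levels are not those of single transcripts. By the mean over all 12 libraries, Rab7 (late endosomes, 182 ± 16.2 CPM per kb, SD, n = 12 libraries), Arf6 (a GTPase of plasma membrane recycling, 180 ± 10.4) and Clta (clathrin light chain A, 172 ± 44.8) led the order, and these neighbours did not differ beyond their spread. Snx5 followed at 142 ± 47.9, Dab2 at 128 ± 17.5, Cltc at 112 ± 15.5, Snx3 at 105 ± 11.4 and Ehd1 at 103 ± 32.1 CPM per kb, again within each other's spread. The order differed between groups, since Snx5 stood at 107 and 91.0 CPM per kb in DMSO (Ova, IC) and at 197 and 173 in iBET, above Arf6 (167) in iBET with Ova. At the other end were Rab4a (0.909 ± 0.309), Epn2 (0.592 ± 0.175), Ehd2 (0.366 ± 0.117) and Ehd3 (0.00487 ± 0.0169). Epn2 and Ehd2 have abundant relatives, Epn1 at 46.6 ± 4.16 and Ehd4 at 63.5 ± 10.2 CPM per kb. The most even members across the 12 libraries were Pdcd6ip (the ESCRT adaptor ALIX), with a coefficient of variation of 4.95%, and Arf6, with 5.76%. The most uneven was Chmp4b, an ESCRT-III subunit, which varied from 96.8 CPM in an iBET, IC library to 577 CPM in mouse A with DMSO and Ova.

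**Figure D1:**
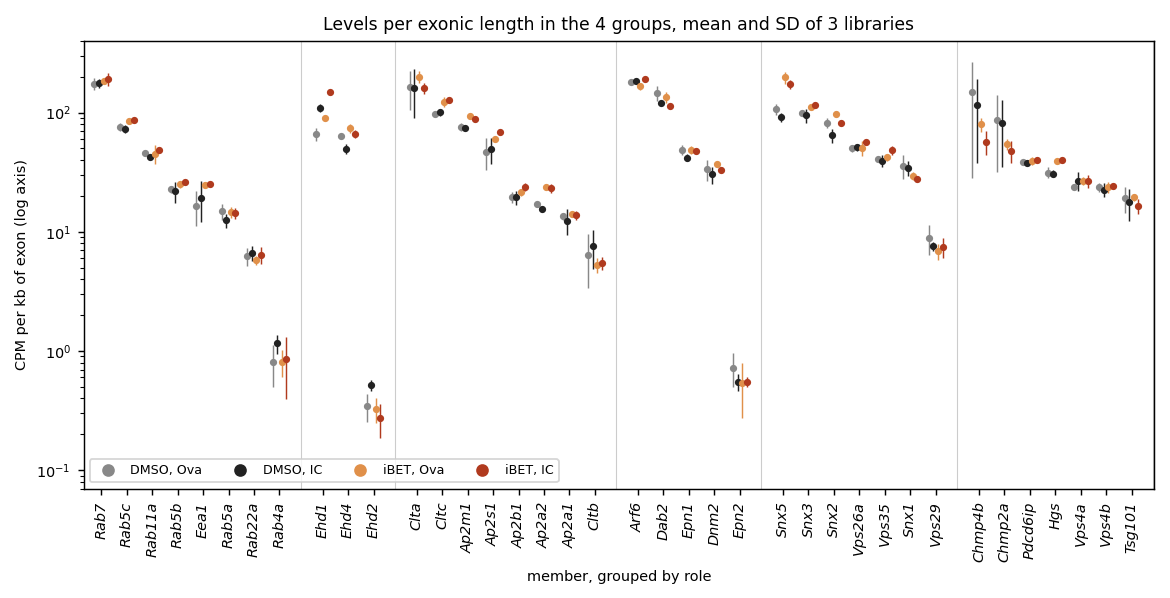
Level of 38 members in CPM per kilobase of exon on a log axis, grouped by role and ordered by level within a role; points are means and bars SDs of the 3 libraries in each of the 4 groups, and Ehd3 is left out because it had reads in 1 library only. Rab4a, Epn2 and Ehd2 stand lowest in every group, Snx5 lies above Rab7 and Arf6 in iBET with Ova but below both in DMSO, and the long bars of Chmp4b, Chmp2a, Clta, Cltb and Eea1 in the DMSO groups come from mouse A.

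The first question of the design was which members changed when ovalbumin was given as an IC. In DMSO, 1 of the 38 members tested was called by edgeR's quasi-likelihood test at an adjusted p under 0.05, against a background of 1.22% of the 11468 genes tested. In iBET, 1 of 38 was called, against 0.349% of all genes. In both arms this member was Ehd1, and it rose. The median log2 fold change over the 38 members was -0.06 in DMSO and 0.01 in iBET, beside -0.01 in each arm over all genes tested.

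Ehd1 encodes the ATPase that releases membrane tubules from the endocytic recycling compartment, and its gene lies on chromosome 19 (mm10, chr19:6276725-6300096, plus strand). In DMSO it stood at 212, 244 and 272 CPM with Ova (mice A, B and C) and at 368, 430.3 and 420.2 CPM with IC. In iBET the levels were 338, 321 and 338 CPM with Ova and 573, 547 and 525 CPM with IC. Neither pair of groups overlapped, and the order of the 4 group means ran from DMSO with Ova through iBET with Ova and DMSO with IC to iBET with IC. IC raised Ehd1 1.67-fold in DMSO (log2 0.74 ± 0.11, SE, edgeR adjusted p = 0.00464) and 1.65-fold in iBET (0.72 ± 0.10, edgeR adjusted p = 0.00935), in 3 of 3 mice each. The 2 increments differed by -0.02 ± 0.15 on the log2 scale (edgeR interaction, adjusted p = 1). In DMSO the call held without any single library, with a highest adjusted p of 0.0395 by edgeR, but it was lost when all libraries of mouse B or of mouse C were left out or when the 2 groups were fitted without the others (edgeR adjusted p = 0.137). Of all genes tested, 0.0%, 0.0866% and 0.0449% were called in those fits. In iBET the call was lost without the iBET, Ova library of mouse A or B or the iBET, IC library of mouse A or B (edgeR adjusted p up to 0.0901), with log2 fold changes still between 0.69 and 0.74, and without mouse B or mouse C. Without mouse B or mouse C, 0.0% and 0.0779% of all genes were called with IC in iBET.

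Ehd4 and Snx2 had lower levels with IC that did not pass the test. Ehd4, a relative of Ehd1 on early endosomes, stood at 258, 262 and 244 CPM with Ova in DMSO and at 219, 189.7 and 188 CPM with IC, without overlap (log2 -0.36 ± 0.10, edgeR adjusted p = 0.144). With mouse as a block it was called lower (log2 -0.36 ± 0.09, edgeR adjusted p = 0.0425), which made 2 of 38 members called against 2.75% of all genes, and DESeq2 also called it (adjusted p = 0.0498). Snx2 (a membrane-bending sorting nexin) went from 243, 201 and 219 CPM with Ova to 200.4, 152 and 169 CPM with IC in DMSO (log2 -0.35 ± 0.11, edgeR adjusted p = 0.213). Both were below their Ova level in every mouse. Ehd2, which marks the rims of caveolae, moved the other way, from 1.54, 1.46 and 2.32 CPM to 2.36, 2.64 and 2.95 CPM, at levels near the limit of counting (log2 0.52 ± 0.32, edgeR adjusted p = 0.611). In the main edgeR fit (1 term per group, all libraries), the roles other than EHD ATPases held no call with IC in either arm. These were 8 Rab and tether genes, 8 clathrin and AP-2 genes, 5 accessory genes, 7 retromer and sorting nexin genes and 7 ESCRT genes. With 1 surrogate variable added, Snx2 was called lower with IC in DMSO (log2 -0.33 ± 0.08, edgeR adjusted p = 0.0379). In that fit 4.39% of all genes were called. Without mouse A, Chmp4b (log2 -0.76 ± 0.10, edgeR adjusted p = 0.00351) and Clta (-0.46 ± 0.10, edgeR adjusted p = 0.0360) were called lower with IC in iBET, where 2.66% of all genes were called.

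**Figure D2:**
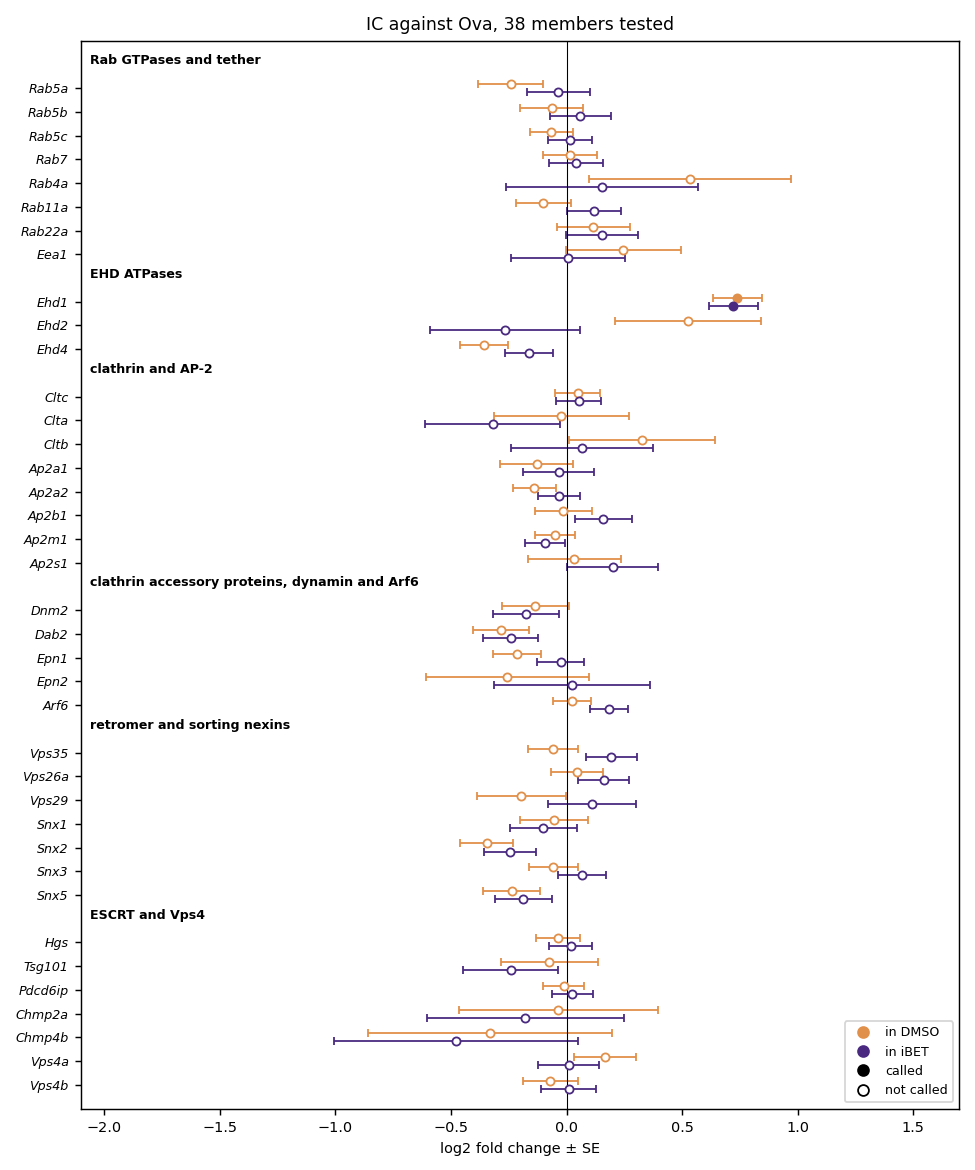
Change with IC against Ova in the 38 members tested, as log2 fold change ± SE from edgeR, in DMSO (orange) and in iBET (purple); filled points were called and open points were not. Ehd1 is the filled point in both arms, at 0.74 and 0.72, and all others are open.

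The second question was how iBET changed the members under each stimulus. With Ova, 6 of 38 members were called, all higher (15.8%), against a background of 31.3% of all genes (17.1% called higher and 14.2% called lower). With IC, 10 of 38 were called (26.3%), 9 higher and 1 lower, against 34.8% of all genes (19.0% called higher and 15.8% called lower). The share of members called was thus below that of all genes in both comparisons of the main edgeR fit. With 1 surrogate variable added the order was reversed with IC. The DESeq2 shares had another background, as given with the processing alternatives. The median log2 fold change over members was 0.06 with Ova and 0.145 with IC, beside 0.02 and -0.0037 over all genes. The 6 called with Ova, Ehd1, Cltc, Ap2a2, Ap2m1, Snx5 and Hgs, were also called with IC. The sum of the macrophage markers given earlier, most of all Lyz2, was also higher in iBET, without overlap with IC. With IC, Csf1r and Cd68 did not rise in every mouse, whereas Adgre1, Itgam and Mertk did. Cd14 with IC rose in mice A and B and stood at 611 CPM in both arms in mouse C. With Ova, Cd68 rose in every mouse and Csf1r in mouse A only. The part of these markers in these changes was not tested. These comparisons use different libraries, but mice A, B and C gave cells to both.

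**Figure D3:**
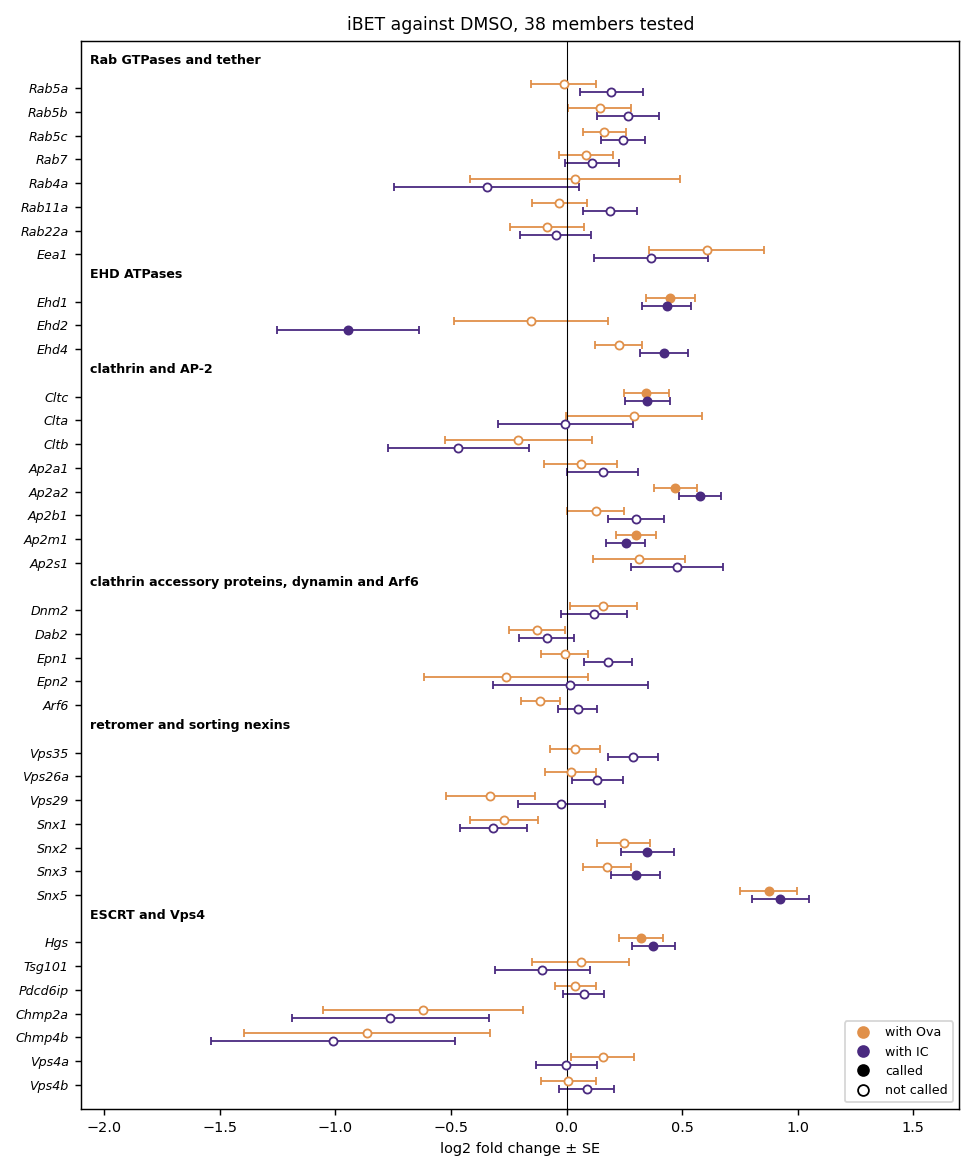
Change with iBET against DMSO in the 38 members tested, as log2 fold change ± SE from edgeR, with Ova (orange) and with IC (purple); filled points were called and open points were not. Snx5 lies farthest to the right at 0.88 and 0.93, Ehd2 with IC at -0.95 is the only filled point on the left, and the widest bars belong to Chmp4b, Rab4a and Chmp2a.

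The sorting nexins held the largest change. Snx5 encodes a sorting nexin that binds cargo and bends endosomal membrane as a partner of SNX1 and SNX2, and it lies on the minus strand of chromosome 2 (mm10, chr2:144250123-144270906). Its levels in DMSO were 486, 464 and 396 CPM with Ova and 417, 368 and 354 CPM with IC. In iBET they were 889, 866 and 710.3 CPM with Ova and 799.99, 687 and 678 CPM with IC. All 6 iBET libraries lay above all 6 DMSO libraries. The rise was 1.83-fold with Ova (log2 0.88 ± 0.12, edgeR adjusted p = 0.000234) and 1.90-fold with IC (0.93 ± 0.12, edgeR adjusted p = 0.000131). It was seen in 3 of 3 mice under each stimulus and was called in all 25 alternative fits of each comparison. Its exons overlap 206 bases of Mgme1 exons on the opposite strand, but Mgme1 reached at most 21.8 CPM in any library.

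Its partners changed less or the other way. Snx2 stood at 253, 279 and 255 CPM in iBET with Ova and at 229, 226 and 208 CPM in iBET with IC, above the DMSO levels given earlier without overlap. It rose 1.27-fold with IC (log2 0.35 ± 0.11, edgeR adjusted p = 0.0321), and with Ova it did not pass the test (0.25 ± 0.11, edgeR adjusted p = 0.123). The IC call was lost without the DMSO library of mouse B or C or the iBET library of mouse A or B (edgeR adjusted p up to 0.117). Snx1, in contrast, was lower in iBET with IC in every mouse, at 119.9, 123 and 114 CPM against 171, 131 and 144 CPM in DMSO, but did not pass the test (log2 -0.32 ± 0.15, edgeR adjusted p = 0.113). DESeq2 with mouse as a block called it lower with IC (-0.34 ± 0.13, adjusted p = 0.0329). Both DMSO libraries of mouse A, at 171 and 196 CPM, lay above the other DMSO libraries (131 to 144 CPM). Snx3, a sorting nexin without the membrane-bending domain that works with retromer on Wntless and transferrin receptor, went from 149, 113 and 139 CPM to 169.99, 153 and 171 CPM with IC (log2 0.30 ± 0.11, edgeR adjusted p = 0.0426). In fits without 1 library this Snx3 call held in 3 of 12, and the highest adjusted p, 0.152, came without the DMSO, IC library of mouse B, where the log2 fold change was 0.19.

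The retromer trimer itself was not called in the main edgeR fit. Vps35, its scaffold, stood at 421, 399 and 467 CPM in iBET with IC against 301, 374 and 378 CPM in DMSO with IC, without overlap (log2 0.29 ± 0.11, edgeR adjusted p = 0.0573). With mouse as a block this passed (edgeR adjusted p = 0.0388). In the main fit Vps26a changed by 0.02 ± 0.11 with Ova and 0.13 ± 0.11 with IC on the log2 scale, with no call. Vps29 changed by -0.33 ± 0.19 and -0.02 ± 0.19, also with no call. DESeq2 with mouse as a block called Vps29 lower with Ova (-0.36 ± 0.15, adjusted p = 0.0467).

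In clathrin and AP-2, the heavy chain and 2 of the 5 AP-2 genes were called under both stimuli. Ap2a2 encodes an alpha subunit of AP-2, the large subunit that docks on phosphoinositides in the plasma membrane (mm10, chr7:141562173-141633011, plus strand). It stood at 101, 91.9 and 97.2 CPM in DMSO with Ova and at 143, 129 and 129 CPM in iBET with Ova. With IC the levels were 85.5, 87.8 and 89.7 CPM in DMSO and 124, 125 and 144 CPM in iBET. No iBET library overlapped a DMSO library. Ap2a2 rose 1.39-fold with Ova (log2 0.47 ± 0.09, edgeR adjusted p = 0.00222) and 1.49-fold with IC (0.58 ± 0.09, edgeR adjusted p = 0.000453). The IC call held in all 25 alternative fits, and the Ova call in 24, being lost without mouse B (edgeR adjusted p = 0.0783). In that fit 11.4% of all genes were called with Ova. The alternative alpha subunit, Ap2a1, changed by 0.06 ± 0.16 and 0.16 ± 0.15 on the log2 scale and was not called.

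Ap2m1 encodes the AP-2 subunit that reads tyrosine sorting signals (mm10, chr16:20535478-20544909, plus strand). Its levels were 303, 343 and 297 CPM in DMSO and 381, 382 and 397 CPM in iBET with Ova. With IC they were 304, 295 and 313 CPM in DMSO and 373, 363 and 353 CPM in iBET. The groups did not overlap, and the rises were small, 1.23-fold with Ova (log2 0.30 ± 0.09, edgeR adjusted p = 0.0190) and 1.19-fold with IC (0.26 ± 0.09, edgeR adjusted p = 0.0349). The Ova call was lost without DMSO, Ova mouse A or C or iBET, Ova mouse B or C (edgeR adjusted p up to 0.1003). The IC call was lost in 7 of 12 fits without 1 library, namely iBET, Ova mouse B and each of the 6 IC libraries (edgeR adjusted p up to 0.106), and its log2 fold change stayed between 0.23 and 0.28. Neither call held without both DMSO libraries of mouse A (edgeR adjusted p = 0.0509 with Ova and 0.0590 with IC).

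Cltc, the clathrin heavy chain that forms the legs of the coat, had the highest mean CPM over the 12 libraries, although Dab2 was higher than Cltc in both DMSO groups (1073 against 827 CPM with Ova and 882 against 855 CPM with IC). With Ova it stood at 805, 821 and 856 CPM in DMSO and at 1140.3, 1065 and 947 CPM in iBET, and with IC at 818, 923 and 825 CPM in DMSO and at 1135, 1051 and 1084 CPM in iBET. Every iBET library was above every DMSO library. The rises were 1.27-fold each (log2 0.34 ± 0.10 with Ova, edgeR adjusted p = 0.0173, and 0.35 ± 0.10 with IC, edgeR adjusted p = 0.0144). With Ova the call was lost without the DMSO or the iBET library of mouse A or B (edgeR adjusted p up to 0.0878). With IC it was lost without the DMSO library of mouse A or C or the iBET library of mouse A (edgeR adjusted p up to 0.0760).

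The remaining AP-2 genes were higher with iBET without passing the test. Ap2s1, the small subunit that binds dileucine signals, stood at 99.6, 95.6 and 107 CPM in iBET with IC against 54.5, 72.6 and 89.7 CPM in DMSO (log2 0.48 ± 0.20, edgeR adjusted p = 0.0810). Ap2b1, the beta subunit that recruits clathrin, changed by 0.30 ± 0.12 with IC (edgeR adjusted p = 0.0765). Both were called with IC when mouse was a block (edgeR adjusted p = 0.0304 for Ap2s1 and 0.0357 for Ap2b1). Without both DMSO libraries of mouse A, Ap2b1 changed by 0.18 ± 0.10 with IC (edgeR adjusted p = 0.205).

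Promoter sequence is shown for Snx5, which had the largest rise, and for the AP-2 genes Ap2a2 and Ap2m1, whose products sit in 1 complex. The sequences are from RefSeq on GRCm38.p6 and read 5′ to 3′ on the strand of the gene, up to the start site and cut back to bases outside any GENCODE exon. Capitals mark CACGTG, an E-box motif that reads the same on both strands and is bound by MYC/MAX and USF proteins. They lie at chr2:144270573-144270662 (minus strand, inside the first intron of a longer Snx5 transcript), chr16:20535230-20535477 (plus strand) and chr7:141561930-141562172 (plus strand).
Snx5: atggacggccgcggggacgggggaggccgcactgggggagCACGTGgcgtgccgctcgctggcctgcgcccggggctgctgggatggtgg
Ap2m1: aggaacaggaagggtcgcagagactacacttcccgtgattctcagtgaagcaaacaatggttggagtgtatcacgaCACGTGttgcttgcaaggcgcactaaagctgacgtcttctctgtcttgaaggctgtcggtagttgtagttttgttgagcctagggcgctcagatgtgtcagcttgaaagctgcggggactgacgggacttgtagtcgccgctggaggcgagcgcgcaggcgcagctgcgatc
Ap2a2: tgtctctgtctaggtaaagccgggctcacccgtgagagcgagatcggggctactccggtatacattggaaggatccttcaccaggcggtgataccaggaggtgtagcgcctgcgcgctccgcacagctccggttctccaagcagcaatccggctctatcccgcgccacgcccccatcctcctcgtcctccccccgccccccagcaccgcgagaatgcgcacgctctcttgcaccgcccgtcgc

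In the 250 bases before the start site, CACGTG was found in 6 of the 34 members with a promoter in the RefSeq table (Rab5a, Ap2m1, Epn1, Vps26a, Snx5 and Pdcd6ip). Rab4a, Ehd1, Arf6, Vps35 and Snx2 were not matched. That is 17.6%, beside 10.2% of 8616 genes tested and 6.86% of 27025 genes in the table. The GC-box GGGCGG was in 21 of 34 members (61.8%), beside 64.7% of genes tested. The AP-1 motif TGANTCA and the NF-kB motif were in 0 of 34 members, beside 5.25% and 5.36% of genes tested. All 4 motifs were searched on both strands, and none contains another. Of the 6 members that carry CACGTG, Snx5 and Ap2m1 were called with iBET, whereas Rab5a, Epn1, Vps26a and Pdcd6ip were not.

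**Figure D4:**
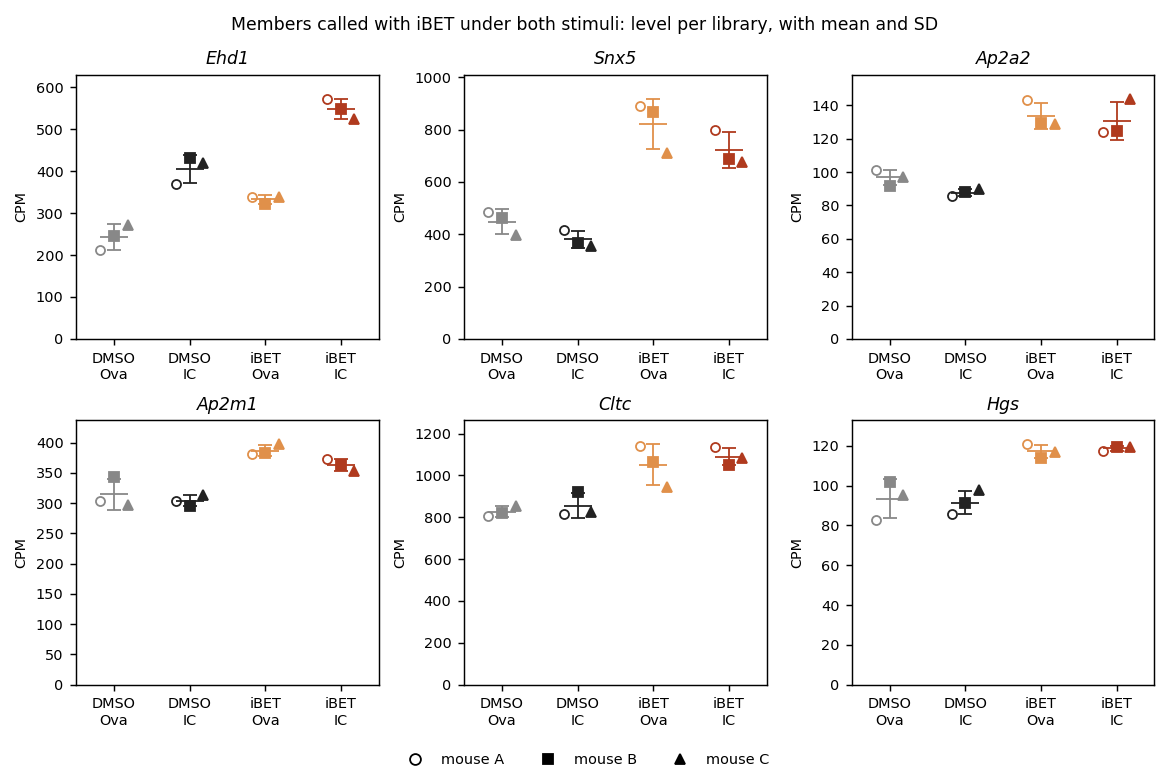
Level in CPM of the 6 members called with iBET under both stimuli, 1 panel per gene with an axis from 0; points are libraries (symbol for mouse) in the 4 groups, with the mean and SD of 3 libraries. In each panel both iBET groups lie above the DMSO group of the same stimulus, and for Ehd1 the IC groups also lie above the Ova groups.

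All 3 EHD genes tested were called with iBET and IC, in unequal directions. Ehd1 was higher in iBET under both stimuli, at the levels given with the IC response, by 1.37-fold with Ova (log2 0.45 ± 0.11, edgeR adjusted p = 0.00653) and 1.35-fold with IC (0.43 ± 0.11, edgeR adjusted p = 0.00689). Both calls held without any single library and were lost without mouse B (edgeR adjusted p = 0.106 and 0.0928). Without mouse B, 11.4% of all genes were called with Ova and 15.4% with IC. Ehd4 stood at 289.7, 248 and 261 CPM in iBET with IC against the 219, 189.7 and 188 CPM of DMSO with IC, a 1.34-fold rise (log2 0.42 ± 0.10, edgeR adjusted p = 0.00725). With Ova it was at 318, 306 and 269 CPM against 258, 262 and 244 CPM, which did not overlap but did not pass the test (0.23 ± 0.10, edgeR adjusted p = 0.119). The Ehd4 call with IC held without any single library and was lost without mouse B or mouse C (edgeR adjusted p up to 0.103). Without mouse C, 21.6% of all genes were called with IC. Ehd2 was the member called lower, at 1.23, 1.07 and 1.92 CPM in iBET against 2.36, 2.64 and 2.95 CPM in DMSO with IC (log2 -0.95 ± 0.31, edgeR adjusted p = 0.0310). That call rests on few reads. It was not made by DESeq2 (adjusted p = 0.0523) and was lost without the DMSO, IC library of mouse B or C or the iBET, IC library of mouse A or B (edgeR adjusted p up to 0.114).

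Hgs was the ESCRT gene called with iBET in the main edgeR fit. It encodes HRS, the ESCRT-0 subunit that captures ubiquitinated cargo on early endosomes (mm10, chr11:120467635-120483979, plus strand). It stood at 82.7, 102 and 95.3 CPM in DMSO with Ova and at 121, 114 and 117 CPM in iBET. With IC the levels were 85.6, 91.4 and 97.6 CPM in DMSO and 117, 119 and 119 CPM in iBET. The groups did not overlap under either stimulus. Hgs rose 1.25-fold with Ova (log2 0.32 ± 0.09, edgeR adjusted p = 0.0213) and 1.297-fold with IC (0.38 ± 0.09, edgeR adjusted p = 0.00805). The Ova call was lost without the DMSO library of mouse A or C or the iBET library of mouse A (edgeR adjusted p up to 0.139), where the log2 fold change without DMSO, Ova mouse A was 0.20. The IC call held without any single library and was lost without mouse B or mouse C. Of all genes, 15.4% and 21.6% were called with IC in those fits. The annotation holds a second gene entry named Hgs over the same exons, so that how its reads were assigned is uncertain.

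The later ESCRT genes gave no call in the main edgeR fit. Pdcd6ip changed by 0.04 ± 0.09 with Ova and 0.07 ± 0.09 with IC, and Tsg101, the ESCRT-I subunit that binds HRS, by 0.06 ± 0.21 and -0.10 ± 0.21 on the log2 scale. Vps4a and Vps4b, the ATPases that take ESCRT-III apart, changed by between -0.00024 and 0.16 on the same scale, with SEs of 0.12 to 0.14. None of these 8 differences passed the test, with adjusted p of 0.414 or more by edgeR.

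None of the 8 Rab and tether genes was called with iBET in the main edgeR fit. Rab5c, the most abundant of the early endosome RAB5 genes, stood at 192, 183 and 189 CPM in iBET with IC against 149, 155 and 173 CPM in DMSO (log2 0.24 ± 0.09, edgeR adjusted p = 0.0611). Rab5b was also higher without overlap with IC (0.27 ± 0.13, edgeR adjusted p = 0.141). Its log2 difference was 0.58 in mouse A and 0.13 and 0.14 in mice B and C. Without both DMSO libraries of mouse A it was 0.08 ± 0.09 (edgeR adjusted p = 0.520). Rab7 changed by 0.08 ± 0.12 with Ova and 0.11 ± 0.12 with IC, and Rab11a, of the recycling endosome, by -0.03 ± 0.12 and 0.19 ± 0.12. Rab22a (-0.08 ± 0.16 and -0.05 ± 0.15) and the low Rab4a (0.04 ± 0.45 and -0.34 ± 0.40) gave no call either. The accessory group was likewise without a call in the main fit. Its genes are Dnm2, the GTPase that cuts vesicles free, Dab2, an adaptor for LDL receptor family cargo, the epsins Epn1 and Epn2, and Arf6. They changed by between -0.26 and 0.18 on the log2 scale. With 1 surrogate variable added, Eea1 and Dnm2 were called higher under both stimuli. Rab5a and Rab5c were then called higher with IC (edgeR adjusted p = 0.0365 and 0.0440). In that fit 41.3% of all genes were called with Ova and 42.8% with IC.

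Apart from the low genes, the SEs were widest in Chmp4b and Chmp2a, in which both DMSO libraries of mouse A stood apart from the other 4 DMSO libraries. For 20 of the 38 members, both of these libraries lay outside the range of the other 4 on the same side, 13 above and 7 below (52.6%), against 39.6% of all genes tested. Chmp4b, whose product forms the ESCRT-III filament, was at 577 and 414 CPM in them and at 139.6 to 168 CPM in the other 4. Chmp2a, which caps that filament, was at 174 and 156 CPM against 61.4 to 65.9 CPM. Clta was at 419 and 438 CPM against 201 to 243 CPM, Cltb, the other light chain, at 48.3 and 51.5 against 19.9 to 33.5 CPM, and Eea1 at 218 and 265 against 127 to 155 CPM. Below the range was Ap2s1, at 46.2 and 54.5 CPM against 72.6 to 89.7 CPM. The iBET libraries of mouse A did not share this, with Chmp4b at 139 and 147 CPM. The share of Rn45s was also high in these 2 libraries, and its part in these levels was not tested.

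**Figure D5:**
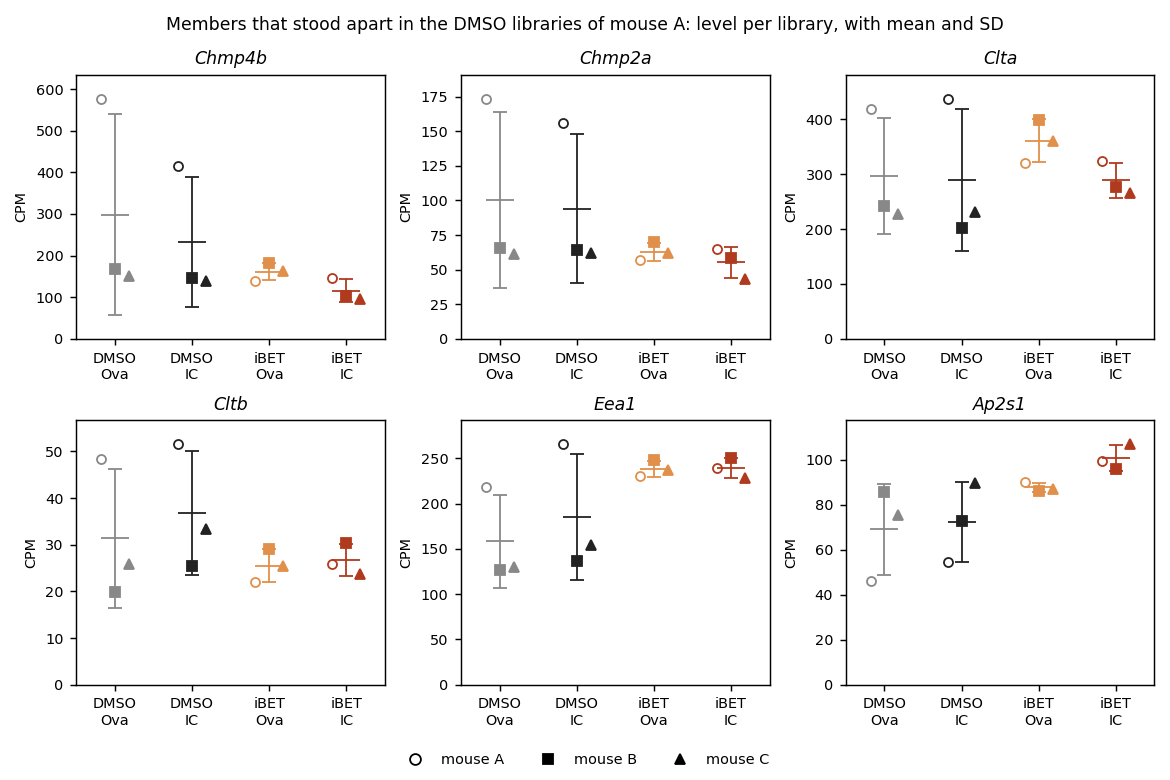
Level in CPM of 6 members in which the 2 DMSO libraries of mouse A (open circles) stood apart, 1 panel per gene with an axis from 0; points are libraries, with the mean and SD of 3 libraries per group. Chmp4b reaches 577 and 414 CPM and Chmp2a 174 and 156 CPM in those libraries, and Ap2s1 is low in them.

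Without those 2 libraries, a choice made after seeing the data, iBET called 10 of 38 members with Ova (9 higher, 1 lower) and 13 with IC (12 higher, 1 lower), each against 36.8% of 11616 genes tested. Of the additions, Eea1, the tether that holds early endosomes together for fusion, had the lowest adjusted p. With all libraries it changed by 0.61 ± 0.25 with Ova (edgeR adjusted p = 0.0877) and 0.37 ± 0.25 with IC (edgeR adjusted p = 0.275). In mice B and C it stood at 248 and 237 CPM in iBET against 127 and 129.98 CPM in DMSO with Ova, and at 250.4 and 228 CPM against 136 and 155 CPM with IC. Without the 2 libraries the changes were 0.86 ± 0.09 (edgeR adjusted p = 7.16e-06) and 0.69 ± 0.09 (edgeR adjusted p = 4.05e-05). Clta (0.58 ± 0.11 and 0.40 ± 0.11) and Dnm2 (0.29 ± 0.09 and 0.23 ± 0.09) were then called higher under both stimuli, Snx2 also with Ova, Ap2s1 with IC, and Dab2 lower with Ova (-0.28 ± 0.10, edgeR adjusted p = 0.0448). Chmp4b and Chmp2a, which were at log2 -0.86 ± 0.53 and -0.62 ± 0.43 with Ova and at -1.01 ± 0.53 and -0.76 ± 0.42 with IC when all libraries were used, had adjusted p of 0.149 or more by edgeR without them. In other fits both were called lower with IC, Chmp4b without mouse A (-0.52 ± 0.10, edgeR adjusted p = 0.00217) and with 1 surrogate variable (-0.41 ± 0.11, edgeR adjusted p = 0.00736), and Chmp2a with 1 surrogate variable (-0.29 ± 0.10, edgeR adjusted p = 0.0214) and by DESeq2 with mouse as a block (-0.68 ± 0.28, adjusted p = 0.0387). With mouse as a block and all libraries kept, 7 members were called with Ova (38.3% of all genes), Eea1 being the addition (edgeR adjusted p = 0.0278), and 13 with IC (42.1% of all genes).

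The third question was whether iBET changed the response of the members to IC. edgeR called 0 of 38 members in the interaction, and 0.0% of all genes. At an unadjusted p under 0.05 there were 0 members and 292 of all 11468 genes, and DESeq2 also called 0 members. The interaction values ran from -0.79 ± 0.45 for Ehd2 to 0.31 ± 0.27 for Vps29 on the log2 scale. For the low genes Ehd2 and Rab4a (-0.38 ± 0.61) a difference as large as the Ehd1 response was within 2 SE. The same held for more abundant members, among them Clta (-0.30 ± 0.41), Cltb (-0.26 ± 0.44) and Eea1 (-0.24 ± 0.35).

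Genes outside the 39 that work in the same steps were taken from 5 lists of 128 genes, of which 125 were tested. With iBET, 37 of 125 were called with Ova (21 higher, 16 lower, 29.6%) and 43 with IC (29 higher, 14 lower, 34.4%), beside the 31.3% and 34.8% of all genes. The late endosome tethering and phosphoinositide list had 6 higher and 1 lower of 25 with Ova (28.0%) and 10 higher and 1 lower with IC (44.0%). Its leading gene was Pikfyve, the kinase that makes PI(3,5)P2, which rose 2.09-fold with Ova (log2 1.07 ± 0.10, edgeR adjusted p = 1.01e-05) and 2.27-fold with IC. The early endosome and recycling list gave 3 higher and 3 lower of 23 with Ova and 5 of each with IC. In it Rab11fip1, a RAB11 effector of recycling, rose 2.44-fold with Ova and 1.99-fold with IC, and it also rose 1.55-fold with IC in DMSO (log2 0.63 ± 0.11, edgeR adjusted p = 0.0138), the only call of the 5 lists in an IC comparison. That last call held in 8 of the 12 fits without 1 library. On the log2 scale, the RAB4 effector Rufy1 changed by -1.74 ± 0.36 with Ova and -1.68 ± 0.36 with IC. The RAB5 activators Rin3 (-1.47 ± 0.16 and -1.37 ± 0.16) and Rin2 (-0.97 ± 0.18 with IC) fell as well.

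The clathrin helper list had 5 higher and 4 lower of 28 tested with Ova and 7 higher and 3 lower with IC. There Snx18, a sorting nexin that bends membrane with dynamin, rose from 48.6 ± 2.95 to 165 ± 8.58 CPM (SD, n = 3) with Ova, by 3.38-fold, and 3.22-fold with IC. Hip1, a link between clathrin and actin, fell by 1.05 ± 0.18 on the log2 scale with Ova. The ESCRT list gave 4 higher and 4 lower of 24 with Ova and 4 higher and 3 lower with IC, and the list of other retromer, sorting nexin and WASH genes gave 3 higher and 4 lower of 25 with Ova and 3 higher and 2 lower with IC. Among the 10 members called with iBET, the highest fold, 1.90 for Snx5, was below those of Snx18, Pikfyve and Rab11fip1.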

How the data were processed

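Total RNA was sequenced in 12 BMDM libraries (3 mice, 4 groups). Per the labels and the study's methods, the authors trimmed reads with Trim Galore, aligned them to mm10 with HISAT2 and deposited raw counts per gene made with featureCounts. Whether strand was used, which annotation, and how multiply aligned reads were handled is not given in the sources used here, and the exons of 13 members overlap exons on the opposite strand. A second, normalized table was not used here.

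Genes were kept by filterByExpr (minimum count 10), which left 11468 of 24421. Counts were scaled by TMM and fitted with edgeR 4.0.16 (R 4.3.3; quasi-likelihood, robust, 1 term per group), with two-sided p-values under Benjamini-Hochberg adjustment across the genes tested; the script was tested on simulated data. The SE is the absolute log2 fold change over the square root of F. Positions and exonic lengths came from GENCODE vM21 (23376 symbols matched directly and 669 by synonym), promoters from RefSeq.

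The labels name each library's mouse, so replicate letters pair libraries of the same animal. Deviations from group means correlated with a median of 0.263 over 18 same-mouse pairs (-0.0725 to 0.542, 12 over 0.1) and -0.134 over 36 pairs of different mice. Alternatives were DESeq2 1.42.0, its size factors, other filters, a block for mouse, 1 surrogate variable (sva 3.50.0), compared groups alone, Rn45s removed, an adjusted p of 0.01, and fits without 1 library or 1 mouse. All 39 members could be named, and of the other lists up to 3 genes with the largest rise and 3 with the largest fall per iBET comparison, averaging 50 or more counts and moving 1 way in 3 of 3 mice, and all called with IC. Members and lists were chosen with earlier results of these data known.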

Additional observations from a re-analysis of the deposited data

Results flagged for a closer look

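Arf6, the GTPase of plasma membrane recycling, was picked out because iBET moved it in opposite directions under the 2 stimuli in every mouse. It stood at 277, 273 and 281 CPM in DMSO and at 276, 248 and 244 CPM in iBET with Ova, and at 271, 286 and 287 CPM in DMSO and 285, 293 and 293 CPM in iBET with IC. The changes were -0.11 ± 0.08 with Ova and 0.05 ± 0.08 with IC on the log2 scale, and neither was called. The difference between them was 0.16 ± 0.12 (edgeR interaction, adjusted p = 1).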

How the results depend on the processing

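The 18 changes called for members were recomputed under up to 25 alternatives, 449 values in all. None changed direction, 356 stayed past the threshold and 93 did not. For IC against Ova in DMSO, where 1 member was called, DESeq2, edgeR with the replicate block (mouse) and DESeq2 with that block each called 2, 1 surrogate variable 3, and the compared groups alone 0. Leaving out a library or mouse gave 0 to 1 there, and 0 to 3 for IC against Ova in iBET. For iBET with Ova (6 called), an adjusted p of 0.01 and the compared groups alone gave 3 each, 1 surrogate variable 11, and fits without a library or mouse 1 to 8. Without both DMSO libraries of mouse A there were 10. For iBET with IC (10 called), an adjusted p of 0.01 gave 5, 1 surrogate variable 19, and fits without a library or mouse 2 to 12. With 1 surrogate variable, iBET called 11 of 38 members (28.9%) with Ova, beside 41.3% of all genes. With IC it called 19 of 38, a higher share than the 42.8% of all genes. For IC in DMSO the shares were 7.89% and 4.39%. DESeq2 covered 39 members and 24421 genes, including those the edgeR filter removed. Its iBET shares were 15.4% beside 14.6% with Ova and 23.1% beside 16.7% with IC. With the replicate block they were 20.5% beside 16.8% and 30.8% beside 19.0%. For iBET with IC, DESeq2 without the block called 4068 genes, beside 3987 of 11468 in the main edgeR fit. With low genes in their background, the DESeq2 shares cannot be set beside the edgeR ones. The other edgeR fits at an adjusted p under 0.05 kept members below all genes for iBET. For both iBET comparisons the lowest value came without mouse B, where 11.4% of all genes were called with Ova and 15.4% with IC. Without mouse A, a fit with as many libraries, 8 and 10 members were called, beside 33.6% and 33.5% of all genes. With the compared groups alone, 7.89% of members were called for iBET with Ova beside 26.7% of all genes. The interaction, which needs all groups and so had no fit of compared groups alone, gave 0 in every fit run. With the replicate block, the paired fit added Ehd4 in IC against Ova in DMSO, Eea1 in iBET with Ova, and Ap2b1, Ap2s1 and Vps35 in iBET with IC, and it lost none of the members called without it.

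Depth limits Ehd2, Epn2 and Rab4a, which averaged 1.88, 3.10 and 1.60 CPM, and the DMSO, Ova library of mouse A with 1768133 counts outside Rn45s. Mice number 3. The main edgeR fit had no term for mouse, so its p-values rest on the spread between libraries within groups. It treated libraries of the same mouse as independent. Changes near 1.2-fold lay at the edge of what was called.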

Other observations

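Among related members, the makeup of a family per kilobase of exon shifted in some families and hardly in others. These shares were computed from the levels described above and were not tested. Of the summed EHD level, Ehd1 made up 50.5% ± 3.82 (SD, n = 3) in DMSO with Ova, 54.6% ± 2.47 in iBET with Ova, 68.6% ± 3.67 in DMSO with IC and 69.0% ± 1.24 in iBET with IC, and nearly all of the rest was Ehd4. The share thus separated by stimulus, with the lowest IC library at 64.3% and the highest Ova library at 57.5%. In the summed level of Snx1, Snx2 and Snx5, the members that are membrane-bending sorting nexins, the shares separated by drug. Sorting nexins outside the members were not part of this total. Snx5 went from 47.7% ± 3.01 to 60.7% ± 2.97 with Ova and from 48.1% ± 2.10 to 61.2% ± 1.78 with IC, while Snx1 went from 15.8% ± 1.92 to 9.18% ± 1.28 and from 18.0% ± 0.645 to 9.76% ± 0.607.

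The RAB5 family kept its makeup across the groups, with Rab5c at 66.8% to 68.1%, Rab5b at 20.03% to 20.8% and Rab5a at 11.3% to 13.2% as group means. Clathrin light chain was at least 95.4% Clta in each group mean, and the epsins at least 98.5% Epn1. Per kilobase, Vps4a and Vps4b were near parity, with Vps4a at 50.3% to 54.0% as group means. This rests on merged exon lengths of 2522 bases for Vps4a and 8905 for Vps4b. In CPM, Vps4b was the higher, with means of 209 against 65.4 over all libraries. Of the AP-2 alpha genes, Ap2a2 made up 56.0% ± 2.90 in DMSO and 62.6% ± 0.471 in iBET with Ova, and 56.0% ± 5.73 and 62.6% ± 1.69 with IC, where the groups overlapped.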
